A study of Caenorhabditis elegans with 2 samples.

Results

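The UDP-glucuronosyltransferase genes of Caenorhabditis elegans, named ugt, were followed in RNA of glp-4 larvae. Members were the probes that GEO's platform annotation gives to exactly 1 gene with a symbol of ugt- and a number. They came to 72 probes of 62 genes, out of 14777 genes with a value on both arrays. All 62 had a value on both arrays, and no filter on low values was applied. RefSeq's table of the WBcel235 assembly holds 67 genes with such a symbol, and the other 5 (ugt-29, ugt-31, ugt-35, ugt-45 and ugt-50) were not analysed here.

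Gene expression was measured on 2 spotted 2-colour microarrays, each giving 1 ratio per probe. The labels put messenger RNA of mixed wild-type worms, a reference common to both arrays, into channel 1, and that of glp-4 mutants at L2, the second larval stage, into channel 2. The sample records elsewhere give the molecule as total RNA. Each of the preparations, named 1 and 2, was hybridised once. Loss of glp-4 function can be temperature sensitive, depending on the allele, and can leave worms with a germ line of few cells. The labels give no temperature, allele or age in hours. The channels thus differ in genotype and in stage at once, and L2 larvae of the wild type were not analysed here. Nothing in the labels says that the preparations were separate cultures, so the spread behind each p-value may be technical. In such whole-animal RNA, fewer cells of a type and less RNA per cell cannot be told apart.

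The enzymes of this family sit in the membrane of the endoplasmic reticulum and transfer a sugar from a UDP-sugar to small fat-soluble molecules, which makes them more soluble and easier to excrete. In mammals the sugar is mostly glucuronic acid, and the liver is the main site. Nematodes also attach glucose to such compounds, and the worm intestine takes on many detoxifying functions of the liver. Substrates of single worm members are left out here, and the genes are therefore ordered by level and by position.

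Each value is a log2 ratio, so that 1 unit is a 2-fold difference between the channels. Higher and lower refer to the likely direction, glp-4 L2 over reference. No dye is stated, and the direction rests on the order in which the descriptions name the samples and on the major sperm protein and yolk protein genes, which lay below 0. The medians on the preparation 1 and 2 arrays were -3.97 and -2.86 for 30 msp genes and -7.16 and -6.80 for 3 vit genes. Every sign below would turn if this reading were wrong. Intensities were not used here, so no gene could be called absent, and levels of different genes were not compared.

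The ugt genes lay mostly above the reference. Their mean log2 ratios had a median of 0.85, against 0.08 over all 14777 genes, and ran from -1.84 for ugt-18 to 3.53 for ugt-13. The quartiles of the family were 0.27 and 1.56. A total of 43 members was above 0 on both arrays and 4 were below 0 on both, where the same counts over all genes came to 37.0% and 30.8%. At least 2-fold higher on both arrays were 17 of 62 members (27.4%), against 4% of all genes. At least 2-fold lower on both was ugt-18 alone, against 7.35% of all genes. These counts and medians describe the family and were not tested as a set.

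**Figure D1:**
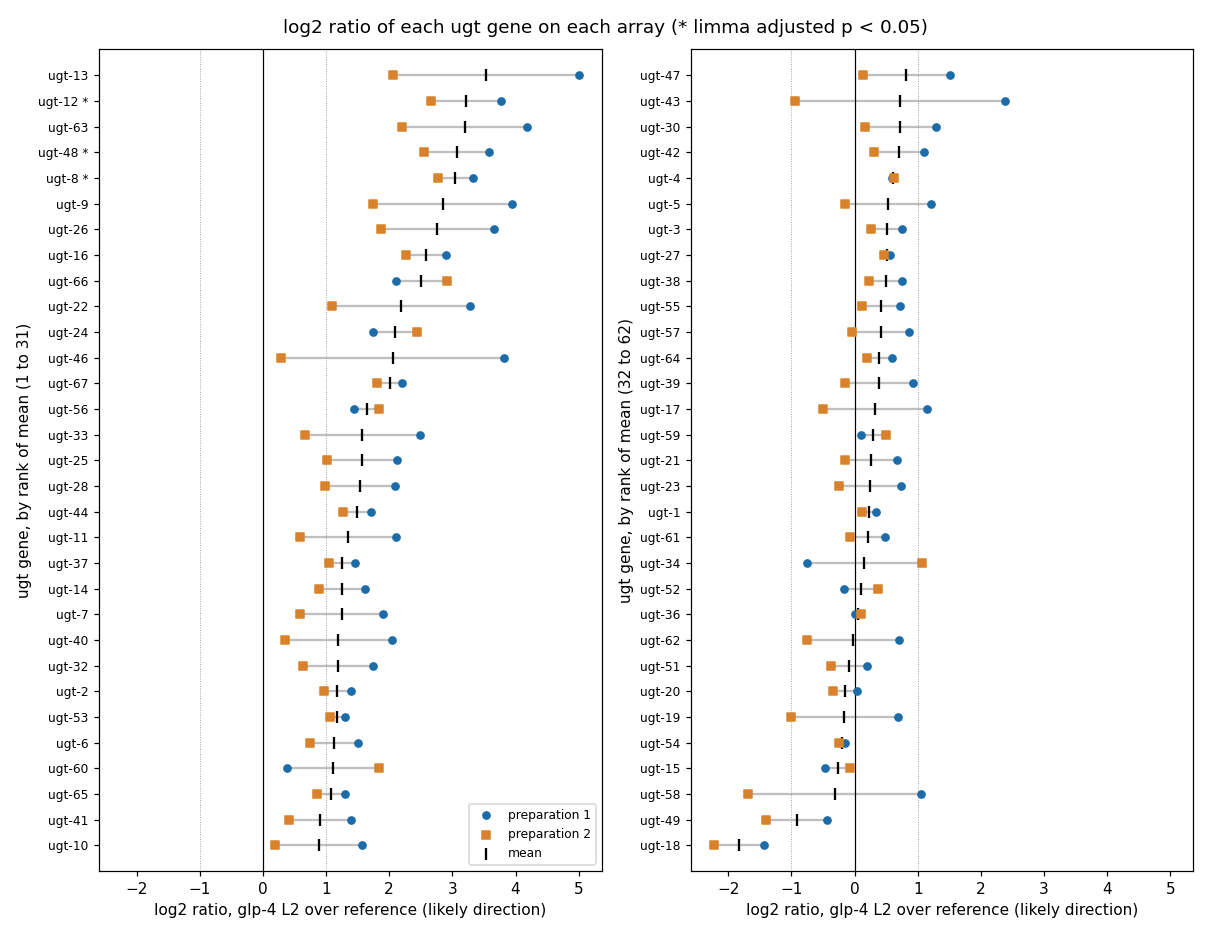
Log2 ratio (x axis) of each of the 62 ugt genes (y axis, ranked by mean) on the preparation 1 array (circles) and the preparation 2 array (squares). Short bars are the mean of both arrays, dotted lines mark a 2-fold difference, and an asterisk marks a limma adjusted p under 0.05. The 3 marked genes are ugt-12, ugt-48 and ugt-8, and ugt-18 is lowest on both arrays.

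By limma with Benjamini-Hochberg adjustment over all genes, 3 members were higher in glp-4 L2 at an adjusted p under 0.05. Among all genes 0.365% were higher by this test. No member was lower by limma (1.5% of all genes were), and 59 did not pass. At an unadjusted p under 0.05, 26 members lay above 0 and 1 lay below, with 7.78% and 10.9% of all genes. The called count was 11 with each array centred on its median or after quantile normalization, where the count over all genes also moved, from 275 to 660 and 605. It was 0 when larger log2 ratios were set to 5 or -5, where 144 of all genes passed and the means of the 3 genes stayed as they were.

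The 3 genes past the test all lie on chromosome V. The gene ugt-12 was at 3.77 in preparation 1 and 2.66 in preparation 2, a mean of 3.22 ± 0.79 (SD, n = 2 here and below), which is 9.30-fold (limma adjusted p = 0.0424). The gene ugt-48 was at 3.58 and 2.56, a mean of 3.07 ± 0.72 or 8.40-fold (limma adjusted p = 0.0450). For ugt-8 the arrays gave 3.32 and 2.78, a mean of 3.05 ± 0.39 or 8.27-fold (limma adjusted p = 0.0388). On each array these 3 genes were at least 5.89-fold above the reference, and the preparation 1 value was the larger one in all of them. Their 95% intervals (limma) were 2.08 to 4.36, 1.96 to 4.19 and 2.03 to 4.06, and overlapped, and differences among the 3 genes were not tested.

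Other members lay far above the reference on both arrays and did not pass the test. The largest mean of the family belonged to ugt-13, with 5.004 in preparation 1 and 2.05 in preparation 2 (mean 3.53 ± 2.09, limma adjusted p = 0.0924). The gene ugt-63 was at 4.19 and 2.20 (mean 3.20 ± 1.40, limma adjusted p = 0.0647). Both were at least 4-fold above the reference on each array. The gene nearest to the threshold from outside was ugt-16, at 2.91 and 2.27 (mean 2.59 ± 0.45, limma adjusted p = 0.0522). In ugt-66 preparation 2 was the larger, with 2.11 and 2.91 (mean 2.51 ± 0.57, limma adjusted p = 0.0612). With ugt-12, ugt-48 and ugt-8, these genes made up the 7 members at least 4-fold higher on both arrays, against 0.697% of all genes.

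A further group was at least 2-fold above the reference on both arrays. It held ugt-9 at 3.95 and 1.74, ugt-26 at 3.65 and 1.87, and ugt-22 at 3.28 and 1.10, all nearer to 0 in preparation 2. The gene ugt-24 went the other way, at 1.74 and 2.45. In ugt-67 the arrays were close together, at 2.20 and 1.81. The other 5 genes of this group had smaller means, from 1.18 for ugt-53 to 1.65 for ugt-56. They included ugt-25 at 2.12 and 1.01, ugt-44 at 1.72 and 1.26, and ugt-37 at 1.45 and 1.04. None of these 10 genes passed the test, with limma adjusted p between 0.0801 for ugt-26 and 0.210 for ugt-53. By rank, 13 of 62 members (21.0%) were in the top 10% of genes on both arrays, as were 2.70% of all genes.

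Another 22 members had means from 0.51 for ugt-27 to 2.05 for ugt-46 and fell short of 2-fold on at least 1 array. Closest to the group above was ugt-28, at 2.09 and 0.99. In most of the others preparation 2 was the limiting array, as in ugt-33 at 2.49 and 0.67, ugt-11 at 2.11 and 0.59, and ugt-40 at 2.04 and 0.35. The gene ugt-60 was the exception by size, at 0.39 in preparation 1 and 1.84 in preparation 2. In ugt-4 the arrays were nearly equal, at 0.59 and 0.63.

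Few members lay below the reference. The lowest was ugt-18, at -1.44 in preparation 1 and -2.23 in preparation 2 (mean -1.84 ± 0.56, limma adjusted p = 0.114), and it was the 1 member below 0 at an unadjusted p under 0.05 (0.00598). Next came ugt-49, whose 2 probes gave -0.38 and -0.48 in preparation 1 and -1.22 and -1.59 in preparation 2 (mean -0.92 ± 0.69, limma adjusted p = 0.328). The other members below 0 on both arrays, ugt-15 and ugt-54, had means of -0.27 and -0.20. Another 14 members had means between 0 and 0.50 in size on the positive side, from 0.06 for ugt-36 to 0.49 for ugt-38. A further 5 had means from -0.32 for ugt-58 to -0.03 for ugt-62, with arrays on opposite sides of 0. They included ugt-51, at 0.20 in preparation 1 and -0.38 in preparation 2. A gene of this middle group is not shown to be unchanged, since the limma 95% interval of ugt-36, for example, ran from -0.92 to 1.03.

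The arrays differed in how far the family lay from 0. For the 62 genes the median came to 1.30 in preparation 1 and 0.43 in preparation 2, while the medians of all genes were 0.10 and 0.02. The ratio was larger in preparation 1 for 52 of 62 members (83.9%), against 49.7% of all genes. Per gene the median difference, preparation 1 minus preparation 2, was 0.79 in the family and -0.004 over all genes. At least 2-fold above the reference were 37 members in preparation 1 (13.3% of all genes) and 19 in preparation 2 (13.5% of all genes). At least 2-fold below were 1 member (14.0% of all genes) and 4 members (17.5% of all genes).

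Single members show how far the arrays could part. In 6 of 62 members (9.68%) the arrays were more than 2 log2 units apart, as in 7.64% of all genes, and all 6 were larger in preparation 1. The widest gap was in ugt-46, at 3.82 and 0.28 (mean 2.05 ± 2.50), which was far above the reference on 1 array only. In ugt-43 the values were 2.38 and -0.94, and in ugt-58 they were 1.05 and -1.69, so that the sign itself differed between the arrays. The remaining 3 were ugt-13, ugt-9 and ugt-22, which stayed at least 2-fold above the reference on both. A sign that differed, positive in preparation 1 and negative in preparation 2, was found in 13 members, and the reverse in 2, ugt-34 (-0.76 and 1.06) and ugt-52 (-0.17 and 0.36). Over all genes these patterns came to 18.4% and 13.8%. Across the 62 members the arrays correlated with a Pearson r of 0.66, and across all 14777 genes with 0.53. These are correlations across genes that share the reference RNA and are not independent replicates.

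**Figure D2:**
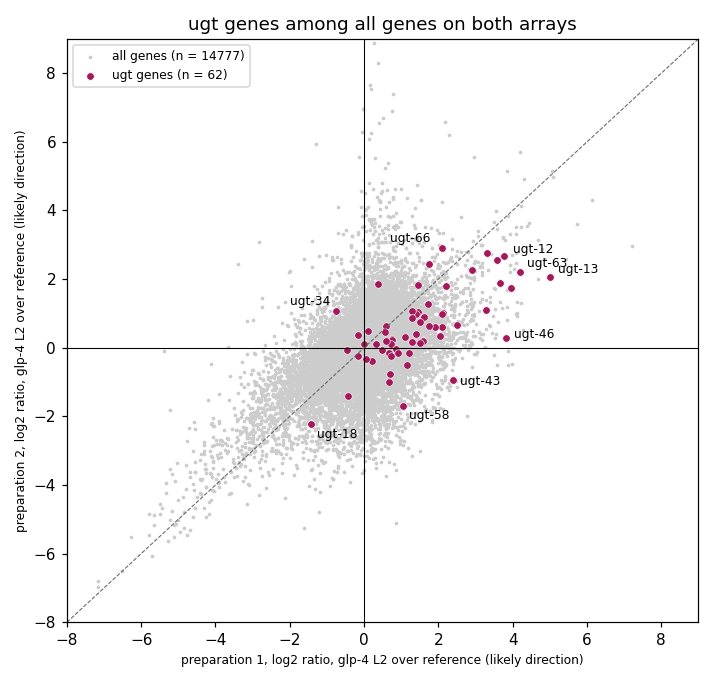
Log2 ratio on the preparation 1 array (x axis) against the preparation 2 array (y axis), for all 14777 genes (grey) and the 62 ugt genes (coloured). The dashed line marks equal values. Of the ugt genes, 52 lie below that line, where preparation 1 is larger, and 43 are positive on both axes.

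The 10 members with 2 probes allow a check within a gene. Their median was 0.45 (0.89 and 0.15 on the preparation 1 and 2 arrays). For the 52 members with 1 probe it was 1.10 (1.39 and 0.59). At least 2-fold higher on both arrays were 2 of the 10 and 15 of the 52. The difference between these groups was not tested. In ugt-49, ugt-5, ugt-64 and ugt-1 the 2 probes differed by less than 0.5 log2 units on each array. The 2 probes of ugt-16 were at 2.21 and 3.60 in preparation 1 and at 2.61 and 1.94 in preparation 2, and all 4 values lay far above 0. The probes of ugt-57 did not give 1 answer, with 2.58 and 0.73 for 1 probe in preparation 1 and 2 and -0.86 and -0.80 for the other. The average of ugt-57 (0.41 ± 0.63) therefore describes neither probe. For ugt-10 the second probe had a value in preparation 1 only. All 3 genes past the test rest on 1 probe each. Members of the family are related in sequence and probe sequences were not used here, so whether a probe also bound RNA of other members was not tested.

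The family is spread unevenly over the genome. Chromosome V carried 40 of the 62 measured members, IV carried 11, I carried 4, III and X carried 3 each and II carried 1. The median of the 40 genes on V was 0.89 (1.39 and 0.50 on the preparation 1 and 2 arrays), and that of the other 3754 genes of V was 0.25 (0.21 and 0.24). The median of the 22 members on other chromosomes was 0.61 (0.95 and 0.41). A 2-fold higher value on both arrays was found in 27.5% of the members on V and in 27.3% of the others. Of the other genes of V, 5.49% met the same rule.

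Many ugt genes are neighbours. With runs defined as ugt genes separated by at most 2 other protein-coding genes in the RefSeq order, 35 members fell into 11 runs and 27 stood alone. Members in runs had a median of 0.90 and the others of 0.70, and both kinds reached means above 3, as in ugt-13 of a run and ugt-63 and ugt-48 outside any run. Neighbours were no closer in value than other members, since the median difference in size was 0.99 over 24 pairs of neighbours and 0.98 over all 1891 pairs of members.

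The longest run, on chromosome V, held 8 genes in the order ugt-12, ugt-11, ugt-9, ugt-10, ugt-67, ugt-8, ugt-14 and ugt-13. All 8 lay above 0 on both arrays and 5 were at least 2-fold higher on both. Their ratios ran from 1.57 to 5.004 in preparation 1 and from 0.19 to 2.78 in preparation 2, with a median mean of 2.42. Without this run the median of the remaining 54 members was 0.65. The 1 measured gene lying between members of this run, T19H12.2, was lower, at -2.64 and -3.15 (mean -2.90 ± 0.35, limma adjusted p = 0.0424). This gene was chosen for mention after the values were seen. The other measured genes inside runs were the chemoreceptor genes str-204 (0.18 and 1.32) and srh-83 (0.38 and 0.57), in the run of ugt-39, ugt-41 and ugt-36 on chromosome V, and both lay above 0 on both arrays (limma adjusted p = 0.418 and 0.536).

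The run on chromosome I held ugt-26, ugt-27, ugt-28 and ugt-25, all above 0 on both arrays. The outer gene ugt-26 was highest (mean 2.76 ± 1.26) and its neighbour ugt-27 was lowest, at 0.55 and 0.46. A run of 3 genes on chromosome V held the lowest member and 1 of the 7 that were at least 4-fold higher on both arrays. In it ugt-16 was at 2.91 and 2.27, while its neighbours ugt-18, at -1.44 and -2.23, and ugt-15, at -0.47 and -0.07, lay below 0 on both arrays. In a run of 4 on the same chromosome, ugt-5, ugt-4, ugt-6 and ugt-3 had means between 0.51 and 1.12. The pair ugt-19 and ugt-20 on chromosome IV had means of -0.16 and -0.15, and both lay above 0 in preparation 1 (0.68 and 0.04) and below 0 in preparation 2 (-1.01 and -0.34).

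**Figure D3:**
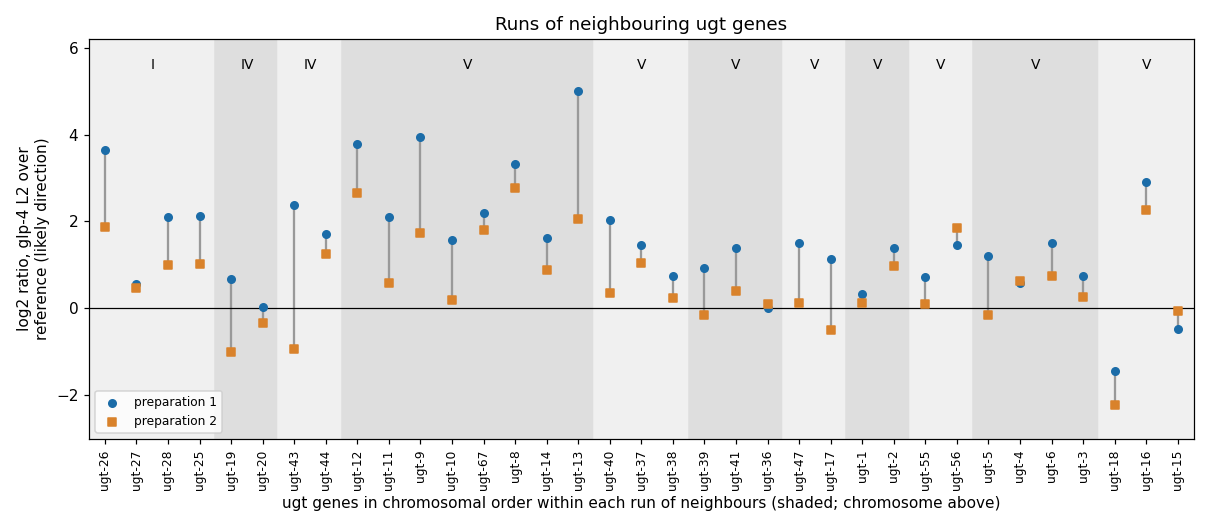
Log2 ratio (y axis) of the 35 ugt genes that lie in 11 runs of neighbours, in chromosomal order within each run (x axis, shaded blocks, chromosome named above), on the preparation 1 array (circles) and the preparation 2 array (squares). The 8 genes of the longest run are all above 0, and the last run holds both ugt-16 and ugt-18.

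UDP-glucuronic acid, a donor sugar of such enzymes, is made from UDP-glucose. Which donor the worm members use was not tested. Of 9 listed genes of UDP-glucuronic acid supply and use, 5 were measured, and all had means below 0 (median -1.16, or -0.53 in preparation 1 and -1.73 in preparation 2). The gene sqv-4, for the UDP-glucose dehydrogenase that makes UDP-glucuronic acid, was at 0.09 and -1.12. The gene sqv-7, for a transporter that carries UDP-glucuronic acid into the Golgi, was at -0.73 and -2.10. The largest in size was sqv-8, a glucuronosyltransferase of proteoglycan synthesis, at -1.13 and -1.73 (mean -1.43 ± 0.43, limma adjusted p = 0.166). By limma 0 of these 5 passed, and at an unadjusted p under 0.05 there were 2, both below 0. Of 5 measured genes for other transferases that use UDP-glucose, 0 passed by limma, with 1 at an unadjusted p under 0.05. They ran from uggt-1, which re-glucosylates misfolded glycoproteins (mean -0.95 ± 1.31), to its relative uggt-2 (1.06 ± 0.23).

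Among phase I enzymes, which oxidise or cleave a compound before a sugar is attached, 1 of 66 cytochrome P450 genes was higher, cyp-35A3, at 4.09 and 2.76 (mean 3.43 ± 0.95, limma adjusted p = 0.0424). It belongs to a subfamily known for induction by foreign compounds. The P450 list had a median of 0.42 (0.26 and 0.20 on the arrays). Of its genes 7.58% were at least 2-fold higher and 1.52% at least 2-fold lower on both arrays, against 4% and 7.35% of all genes. At an unadjusted p under 0.05, 10 of its genes lay above and 3 below 0. Over all genes 7.78% lay above and 10.9% below 0 at that p, and by limma 0.365% were called higher and 1.5% lower. The P450 reductase gene emb-8 was at 0.41 and -2.63, and the cytochrome b5 gene cytb-5.2 went the other way, at -0.56 and 1.13. By limma 0 of 24 dhs short-chain dehydrogenases passed (unadjusted p under 0.05 for 3 above and 2 below 0), 0 of 32 cest carboxylesterases (4 above and 1 below) and 0 of 3 flavin monooxygenases (0 above and 1 below). Their medians were 0.24, 0.25 and -0.74. The extremes were dhs-25 (1.86 ± 0.06) and dhs-26 (-1.59 ± 0.56), cest-30 (4.24 ± 2.76) and cest-29 (-1.66 ± 0.73), and fmo-4 (0.32 ± 0.76) and fmo-2 (-3.05 ± 1.20).

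Among other conjugating and redox enzymes, 2 of 36 glutathione S-transferase genes were higher, gst-38 (2.76 ± 0.59) and gst-24 (2.76 ± 0.57), both at a limma adjusted p of 0.0492. That list's median was 0.41 (0.38 and 0.28). Of its genes 13.9% were at least 2-fold higher and 8.33% at least 2-fold lower on both arrays, against 4% and 7.35% of all genes. At an unadjusted p under 0.05, 8 of its genes lay above and 3 below 0, with 7.78% and 10.9% of all genes. The sulfotransferase gene ssu-1 was at -0.41 and 0.40. Of 13 glutathione and redox genes, trxr-1, for a thioredoxin reductase, was lower at -2.73 and -2.79 (limma adjusted p = 0.0424), and 12 did not pass. A gap between the arrays like that of ugt (median difference, preparation 1 minus preparation 2, of 0.79) was also found in other lists. It was 1.86 for the other transferases that use UDP-glucose and 1.22 for UDP-glucuronic acid supply and use. Of the lists described below, it was 1.10 for the regulators, 0.86 for the P-glycoproteins and 1.45 for the hypodermis markers. For the flavin monooxygenases it was 0.75, and for the carboxylesterases and the haf transporters 0.59 each. It was 0.39 for the intestine markers, 0.07 for the P450 genes, -0.18 for the mrp transporters and germ cell markers, and -0.20 for the glutathione S-transferases.

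Efflux pumps carry conjugates and foreign compounds out of cells. The 14 P-glycoprotein genes had a median of 0.88, near that of ugt. Per array it was 1.27 in preparation 1 and 0.10 in preparation 2, against 1.30 and 0.43 for ugt. At least 2-fold higher on both arrays were 2 of the 14 (14.3%), against 27.4% of ugt members and 4% of all genes. The highest P-glycoprotein gene was pgp-7, at 5.44 and 2.59 (mean 4.02 ± 2.02, limma adjusted p = 0.0647), and the lowest pgp-11 (-1.12 ± 0.27). By limma 0 of the 14 passed (unadjusted p under 0.05 for 3 above and 1 below 0, with 7.78% and 10.9% of all genes). Of 6 mrp transporters 0 passed (0 above and 1 below at an unadjusted p under 0.05), with means from -1.37 for mrp-1 to 0.64 for mrp-6. Of 6 haf ABC transporters 0 passed (0 at an unadjusted p under 0.05), from -1.04 for haf-3 to 1.13 for haf-9. No test of a difference between ugt and these families was run.

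Among 22 measured regulators of the response to foreign compounds and stress, 0 passed by limma. At an unadjusted p under 0.05 by limma 1 regulator lay above and 5 below 0, with 7.78% and 10.9% of all genes. The median of the 22 was -0.68, or -0.04 in preparation 1 and -1.23 in preparation 2. At least 2-fold lower on both arrays were 4 of the 22 (18.2%), against 7.35% of all genes. They were egl-9 (-1.05 and -3.32), pmk-1 (-1.54 and -1.64) and nsy-1 (-1.34 and -1.90), the last 2 for kinases of a stress pathway, and the nuclear receptor gene nhr-48 (-1.45 and -1.04). The 1 regulator at least 2-fold higher on both arrays was nhr-8, a nuclear receptor of toxin resistance, at 1.58 and 1.03 (mean 1.31 ± 0.39, limma adjusted p = 0.193). The gene skn-1, for the worm counterpart of the mammalian Nrf factors that act on detoxification genes, was at 0.40 and -0.68, and wdr-23, for its repressor, at 0.07 and -3.0. The Mediator subunit gene mdt-15 was at -0.08 and -2.40, and the lowest mean was that of egl-9, an oxygen-sensing hydroxylase (-2.19 ± 1.60). Both wdr-23 and mdt-15 were near 0 in preparation 1 and far below it in preparation 2. The same held for nhr-49 (-0.04 and -2.91), hif-1 (-0.04 and -2.74) and daf-16 (-0.09 and -2.50), which were named for this pattern. Other regulators did not share it, such as ahr-1 (-0.06 and 0.36), elt-7 (-0.16 and 0.03) and zip-2 (2.06 and -0.94). The ratio was larger in preparation 1 for 18 of the 22, against 49.7% of all genes.

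**Figure D4:**
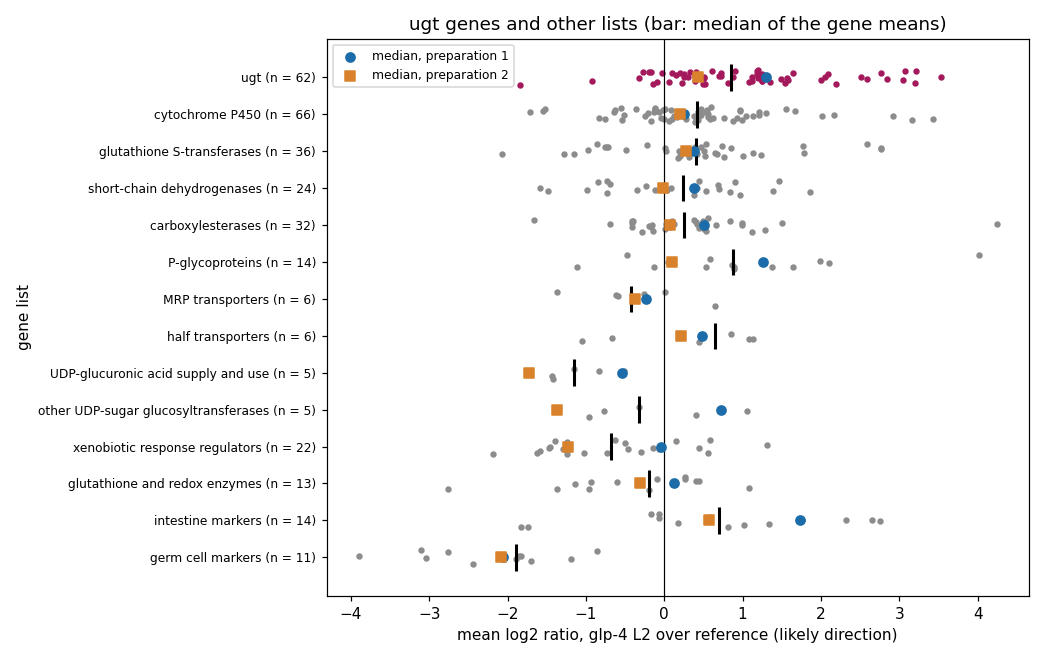
Mean log2 ratio (x axis) of every measured gene (dots, shifted at random up or down) in the ugt family and in 13 other lists (y axis, n measured). Black bars are the median of the gene means, circles the median on the preparation 1 array and squares the median on the preparation 2 array. The ugt median is 0.85 and that of P-glycoproteins 0.88, while on the preparation 2 array they are 0.43 and 0.10. The list of UDP-glucuronic acid supply and use has a median of -1.16 and that of regulators -0.68.

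Tissue markers in the same RNA gave ratios on either side of 0. Of 16 intestine markers 14 were measured. The peptide transporter gene pept-1 was higher (2.76 ± 0.33, limma adjusted p = 0.0452) and 13 did not pass. At least 2-fold higher on both arrays were 4 of 14 (28.6%), against 4% of all genes and 27.4% of ugt members. At least 2-fold lower on both was 1 (7.14%), against 7.35% of all genes. At an unadjusted p under 0.05 by limma, 5 intestine markers lay above and 2 below 0, with 7.78% and 10.9% of all genes. The intestine median was 0.70, or 1.74 in preparation 1 and 0.57 in preparation 2, and the list ran from -1.98 to 2.99 and from -2.79 to 3.48. The intestinal transcription factor gene elt-2 was at 0.74 and 0.43, and mtl-1, a metallothionein gene, had the lowest mean (-1.82 ± 0.22). Medians of 12 hypodermis, 6 glia and 7 body muscle markers were 0.18, 0.13 and -0.05. In preparation 1 these medians were 0.79, 0.18 and 0.76, and in preparation 2 they were -0.38, 0.07 and -0.07. At least 2-fold higher on both arrays were 2 hypodermis (16.7%), 0 glia and 1 body muscle marker (14.3%). At least 2-fold lower on both were 0, 0 and 1 (14.3%). By limma 0 of the markers in these 3 lists passed. At an unadjusted p under 0.05 by limma there were 2, 0 and 1 above 0 and 0, 0 and 1 below. All 11 measured germ cell markers (median -1.89) lay below 0 on both arrays, as did 30.8% of all genes. Of them 3 were lower by limma, oma-1, pgl-1 and nos-2, against 1.5% of all genes. The part of tissue content in the ugt values was not tested.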

How the data were processed

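Per the labels, each array compared RNA of glp-4 L2 worms with a common reference. The deposited table holds 1 number for each probe on each array, which was read as a log2 ratio because 2 raised to the value fell on steps of 0.001 (within 0.002 of a step) for 99.1% and 98.8% of values. For background correction, scaling and dyes the method is not given in the sources used here. Values were used as deposited. Of 21632 probes, 16450 had 1 gene, 247 several and 4935 none. Names were updated by Entrez ID through RefSeq's WBcel235 table for 16360 probes; no ugt name changed. No build is named in the files, so no coordinates are given. Probes of a gene were averaged per array. The test of each gene's mean against 0 used limma 3.58.1 (R 4.3.3; an intercept, eBayes, prior of 4.52 degrees of freedom) and Benjamini-Hochberg adjustment over 14777 genes. An exact permutation test of 2 arrays cannot go below a two-sided p of 0.5. The reference counts as 1 control RNA whose own spread the test leaves out, and probe-specific dye bias remains. Precision is limited by the number of arrays. The members and lists were chosen with earlier results of these data known. Named in full were members past the threshold, the 12 highest and 8 lowest means, those 2-fold apart on both arrays, the 5 with the widest gap between arrays, and those whose probes disagree. Each list gives its genes past the threshold, or its highest and lowest, except the hypodermis, glia and body muscle markers. Some genes were named outside this rule. They were sqv-7, elt-2, mtl-1 and the regulators other than nhr-8 and egl-9.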

Additional observations from a re-analysis of the deposited data

How the results depend on the processing

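The median of the ugt genes kept its sign in every alternative run, from 0.43 without replicate 1 to 1.30 without replicate 2, which leave 1 array and no test. The 17 members at least 2-fold higher on both arrays numbered 17 with centred arrays, quantile normalization or the median of probes, and 20 after gene span correction. The 3 members past the limma test became 11 with each array centred on its median, 11 after quantile normalization, 7 after gene span correction and 0 with log2 ratios limited to 5, where ugt-8, ugt-12 and ugt-48 had limma adjusted p of 0.0535, 0.0587 and 0.0605. At an adjusted p under 0.01 there were 0, and at an unadjusted p under 0.05 there were 27 (26 above and 1 below 0). The 4 of 235 pathway genes past the test became 12 with centred arrays, 13 after quantile normalization, 9 after gene span correction, 0 with ratios limited to 5, and 2 with the median of probes, with genes of 1 probe only and with a robust variance prior. With genes of 1 probe only, ugt-48 had a limma adjusted p of 0.0525. Centring and quantile normalization each brought ugt-9, ugt-13, ugt-16, ugt-24, ugt-26, ugt-63, ugt-66 and ugt-67 past the threshold. With ratios limited to 5 the means of ugt-8, ugt-12 and ugt-48 were unchanged, so these lost calls came from the variance prior and the adjustment, which all genes share. The cause of the other moves was not tested. Over all genes the called number was 660 with centred arrays, 605 after quantile normalization, 438 after gene span correction and 144 with limited ratios, against 275. The median without the longest run (0.65), and the counts of members at least 2-fold higher under other settings, were added after the data were seen. No paired analysis was possible because both arrays belong to 1 group. Signal over background is unknown, since intensities were not used here. The part of the rule for named genes that asks for protein identity was not applied.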
